A study of Mus musculus with 36 samples.

Results

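Smooth muscle contractile genes encode the filaments and regulators with which smooth muscle cells shorten, and fibroblasts use several of them in stress fibres. The 10 genes described here are a list of names: the actins Acta2 and Actg2, the actin-binding proteins Tagln, Cnn1, Cnn2 and Cald1, the tropomyosins Tpm1 and Tpm2, and the myosin II subunits Myl9 and Myh9. All 10 were found among the 52505 genes of the deposited expression table. Of these, 8 reached the mean of 1 FPKM (fragments per kilobase of transcript, scaled to the library's size) required for testing, as did 12961 genes in all, and Tagln and Cnn1 did not. Actg2 and Myl9 reached it only through WT day 0.

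The cells were 3T3-L1, mouse preadipocytes that a cocktail of hormones drives to become fat cells. The 4 groups of 3 RNA-seq libraries each were zfp217-/- cells, called KO here, at day 2 and at day 0 of adipogenic induction, and wild-type (WT) cells at day 2 and at day 0. Per the labels the induction medium held dexamethasone, isobutyl-methylxanthine, insulin and indometacin, and every library, day 0 included, carries the same medium label. Zfp217 is a zinc finger protein of the nucleus, and the labels do not say whether the KO cells came from 1 clone or whether replicates were separate cultures, so that p-values measure the spread between these libraries, which may be technical.

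In contraction, actin filaments slide along myosin II once the regulatory light chain of myosin has been phosphorylated. Tropomyosins, calponins and caldesmon lie along the actin filament and regulate its use by myosin. Many genes of this set are known targets of serum response factor (SRF), which binds a short DNA element named the CArG box together with myocardin in smooth muscle or with the related MRTF proteins in other cells, and MRTF is held back by unpolymerised actin. In preadipocytes the loss of stress fibres and of this programme is known to accompany the change into rounded fat cells.

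The libraries held 18073258 to 23114994 reads recovered from the FPKM values. Zfp217 itself gave no check of the labels, as KO libraries held no less of its message: it lay at 21.7 to 23.4 FPKM in KO against 14.6 to 15.3 FPKM in WT at day 2, and at 25.2 to 26.9 FPKM in KO against 21.7 to 22.3 FPKM in WT at day 0. A level per gene cannot show a frameshift, and all directions below follow the labels. WT day 0 replicate 3 had 23 tested genes at least 4-fold from both other libraries of its group, against 1 to 5 in each of the other libraries, and none of the 10 genes was among them. Without that library, the members passing numbered 8 at day 0 and 6 at day 2 between genotypes, 6 in KO and 8 in WT between days, as they did with it.

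The defining markers of mature smooth muscle were mostly absent. Of 8 such markers, 2 averaged 1 FPKM or more in each group, Hspb6 and Synm. The summed level of all 8 was 9.11 to 9.42 FPKM in KO day 2 and 18 to 18.2 FPKM in KO day 0. In WT it was 11.6 to 13.7 FPKM at day 2 and 30.6 to 32.7 FPKM at day 0. Most of each sum was Hspb6, at means of 7.28 and 13.5 FPKM in KO day 2 and KO day 0, and 8.99 and 28.1 FPKM in WT day 2 and WT day 0. Myocd, which encodes myocardin, was above 0 only in WT day 2 replicate 3, at 0.017 FPKM. Myh11, the smooth muscle myosin heavy chain, averaged 0.25 FPKM in KO day 2, 0.091 FPKM in KO day 0, 0.327 FPKM in WT day 2 and 0.0212 FPKM in WT day 0. The genes below are thus the contractile genes of a fibroblast line, and their name is not evidence of muscle cells.

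Before induction the contractile genes were lower in KO than in WT cells, and after 2 days most of those still expressed were higher in KO. At day 0 all 8 tested genes were lower in KO, while 44.2% of all tested genes were lower and 38.3% higher. At day 2, 5 of the 8 were higher in KO and 1 was lower, while 40.8% of all tested genes were higher and 40.6% were lower. In WT cells all 8 fell between day 0 and day 2, while 46.5% of all tested genes fell and 34.2% rose. In KO cells 5 fell, against 38.8% of all tested genes, and 1 gene, Cald1, rose, against 33.9%. A change of at least 2-fold on the log2(FPKM + 1) scale was rarer. At day 0 it was passed, lower in KO, by Acta2, Actg2, Cald1 and Myl9, that is 4 of 8, against 11.9% of all tested genes. At day 2 it was passed, higher in KO, by Acta2, Cnn2, Cald1 and Myh9, 4 of 8, against 12.9%. Between days it was passed as a fall in KO by Acta2, Cnn2 and Tpm1, 3 of 8, against 6.99%, and as a fall in WT by 7 of 8, all but Tpm2, against 15.1%. Actg2 and Myl9 had to be high in WT day 0 to be tested at all, so that these counts are descriptions.

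The summed level of the 10 genes followed the same order. It was 923 ± 2.01 FPKM in KO day 2, 1380 ± 5.57 FPKM in KO day 0, 350 ± 2.75 FPKM in WT day 2 and 2944 ± 14.3 FPKM in WT day 0 (SD, n = 3 each). As a share of all reads, the 10 genes took 0.201% to 0.202% in KO day 2, 0.277% to 0.280% in KO day 0, 0.0756% to 0.0768% in WT day 2 and 0.582% to 0.589% in WT day 0. These are bulk samples, in which fewer cells of a type and less RNA per cell cannot be told apart.

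**Figure D1:**
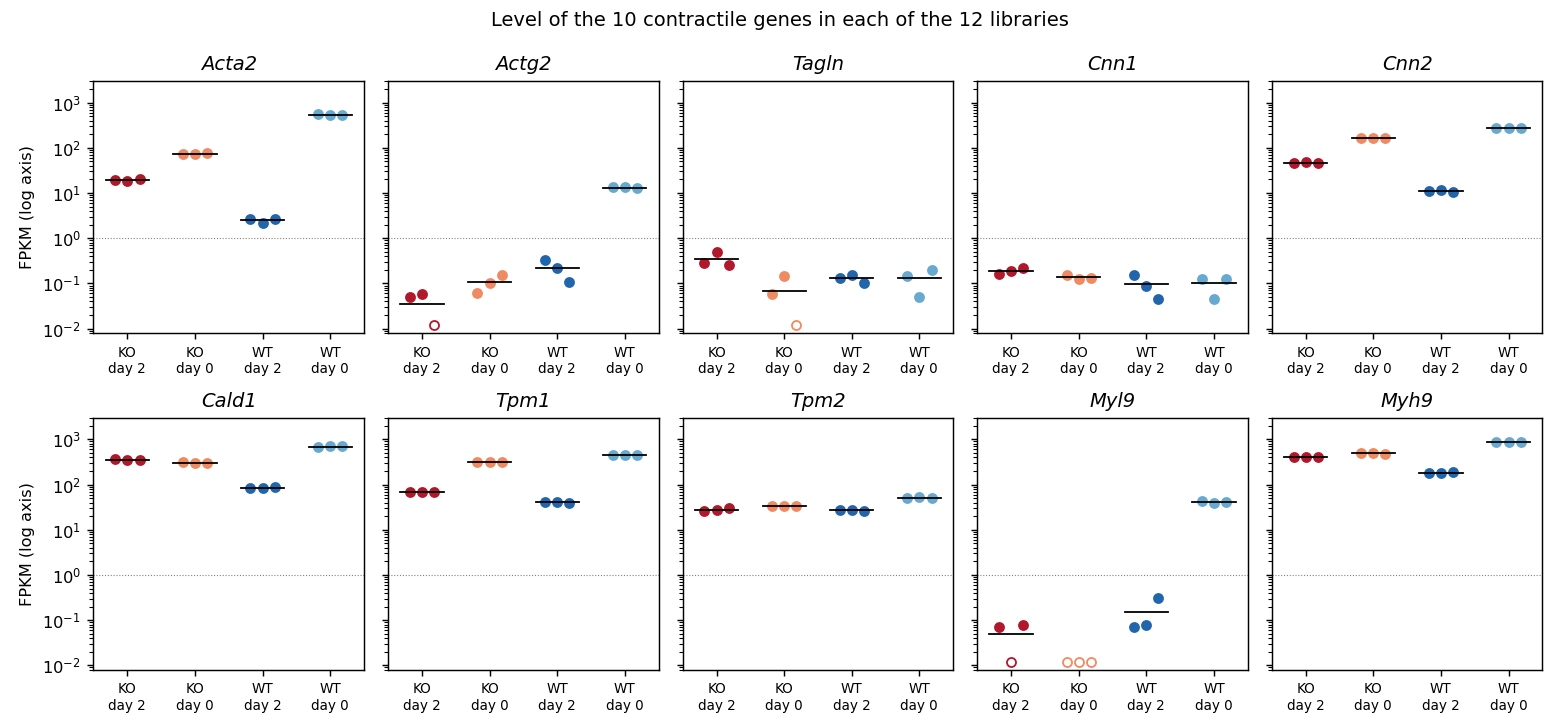
FPKM of each of the 10 genes in every library on a log axis, with points for single libraries, bars for group means, open points at the bottom for libraries with 0 reads, and a dotted line at 1 FPKM. Acta2 lies at 18.8 to 20.8 FPKM in KO day 2 and at 2.22 to 2.73 FPKM in WT day 2, the reverse of the order at day 0, and Tagln and Cnn1 lie below 1 FPKM in every library.

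Acta2 encodes smooth muscle alpha actin, a common mark of myofibroblasts (gene ENSMUSG00000035783, chromosome 19, 34240336 to 34255585 in mm10). Its level was 19.2, 18.8 and 20.8 FPKM in the KO day 2 libraries, 73, 73.6 and 75.4 FPKM in KO day 0, 2.67, 2.22 and 2.73 FPKM in WT day 2, and 549, 533 and 542 FPKM in WT day 0. The 4 groups did not overlap: WT cells were highest before induction and lowest after it, with KO cells in between on both days. At day 0, Acta2 was 7.31-fold lower in KO (log2 change of FPKM + 1 of -2.85, SE 0.05, adjusted p = 3.24e-13). At day 2 it was 7.71-fold higher in KO (log2 change 2.54, SE 0.05, adjusted p = 6.41e-13).

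Over the 2 days Acta2 fell 3.77-fold in KO cells (log2 change -1.87) and 213-fold in WT cells (log2 change -7.26, SE 0.05, adjusted p = 1e-16). On the log2(FPKM + 1) scale the fall in WT was rank 1 of the 12961 tested genes, counted from the lowest. The change over time differed between genotypes by 5.40 on that scale (SE 0.07, adjusted p = 9.45e-14).

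Actg2 encodes smooth muscle gamma actin, found mainly in visceral smooth muscle (ENSMUSG00000059430, chromosome 6, 83512909 to 83536251). It had 1, 1 and 0 reads in KO day 2, 1, 2 and 3 reads in KO day 0, 7, 4 and 2 reads in WT day 2, and 265, 251 and 249 reads in WT day 0, where its level was 13.2 ± 0.359 FPKM (SD, n = 3). Only WT day 0 held more than a few reads. The pooled library-scaled reads in WT day 0 were 122 times those in KO day 0 (95% exact counting interval 56.0 to 335). The day 0 difference passed the test (log2 change -3.69, adjusted p = 1.78e-12). As Actg2 was tested only because it was high in WT day 0, this p-value is a description and no support for the difference.

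At day 2 Actg2 was called lower in KO (log2 change -0.23, adjusted p = 0.023), on 2 reads in KO against 13 in WT. That call was lost without WT day 2 replicate 1 (log2 change -0.16, adjusted p = 0.101), without KO day 2 replicate 3 (adjusted p = 0.0649), with no filter on low values (adjusted p = 0.0564) and in a fit of the compared libraries alone (adjusted p = 0.0658). Acta2 and Actg2 share most of their coding sequence, so that counting could have moved reads between them. For each 1000 Acta2 reads there were 0.921 Actg2 reads in KO day 2 (95% interval 0.111 to 3.33), 0.749 in KO day 0 (0.275 to 1.63), 44.7 in WT day 2 (23.5 to 77.6) and 12.5 in WT day 0 (11.7 to 13.5), on 2, 6, 13 and 765 Actg2 reads. These intervals, like all counting intervals here, cover counting error only.

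Tagln encodes transgelin, or SM22 alpha, an actin cross-linking protein abundant in smooth muscle (ENSMUSG00000032085, chromosome 9, 45929628 to 45936058). It had 6, 9 and 5 reads in KO day 2, 1, 3 and 0 reads in KO day 0, 3, 3 and 2 reads in WT day 2, and 3, 1 and 4 reads in WT day 0. At these few reads the pooled library-scaled reads at day 2 in KO were 2.58 times those in WT (95% interval 1.09 to 6.77). Its locus overlaps Pcsk7, a proprotein convertase gene, by 2480 bases, and Pcsk7 averaged 38.2 FPKM in KO day 2, 22.9 FPKM in KO day 0, 28.7 FPKM in WT day 2 and 18.2 FPKM in WT day 0, so that the few Tagln reads are uncertain. Whether reads in the overlap were left out of the Tagln count was not tested, and the low count is not evidence that Tagln is silent. Tagln2, the transgelin of non-muscle cells, averaged 88.6, 88.7, 91.9 and 424 FPKM in KO day 2, KO day 0, WT day 2 and WT day 0.

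Cnn1 encodes the smooth muscle calponin (ENSMUSG00000001349, chromosome 9, 22099221 to 22109221). It had 4, 4 and 5 reads in KO day 2, 3, 3 and 3 reads in KO day 0, 4, 2 and 1 reads in WT day 2, and 3, 1 and 3 reads in WT day 0. No order of the groups can be read from these counts.

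Cnn2 encodes the calponin of non-muscle and smooth muscle cells (ENSMUSG00000004665, chromosome 10, 79988600 to 79995400). It lay at 46.1, 47.9 and 45.5 FPKM in KO day 2, 161, 163 and 163 FPKM in KO day 0, 10.8, 11.5 and 10.4 FPKM in WT day 2, and 273, 271 and 271 FPKM in WT day 0. No groups overlapped, and their order was that of Acta2. Cnn2 was 1.67-fold lower in KO at day 0 (log2 change -0.74, SE 0.03, adjusted p = 7.14e-10) and 4.27-fold higher in KO at day 2 (log2 change 2.00, adjusted p = 8.73e-14). It fell 3.49-fold in KO and 24.9-fold in WT over the 2 days.

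Cald1 encodes caldesmon, which binds actin and myosin and holds their interaction back (ENSMUSG00000029761, chromosome 6, 34598495 to 34775469). It lay at 361, 353 and 349 FPKM in KO day 2, 307, 303 and 304 FPKM in KO day 0, 82.7, 85.3 and 87.7 FPKM in WT day 2, and 680, 694 and 698 FPKM in WT day 0. It was the only tested member that passed as higher at day 2 than at day 0 in KO cells, with no overlap (1.16-fold, log2 change 0.22, SE 0.02, adjusted p = 5.16e-06), and it fell 8.1-fold in WT cells (log2 change -3.00, adjusted p = 1.82e-16). Between genotypes it was 2.26-fold lower in KO at day 0 (log2 change -1.18, adjusted p = 6.49e-13) and 4.16-fold higher in KO at day 2 (log2 change 2.04, adjusted p = 5.51e-15). A level per gene does not separate the long smooth muscle form of caldesmon from the short form of other cells.

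Tpm1 encodes alpha tropomyosin, whose transcripts are spliced into muscle and non-muscle forms (ENSMUSG00000032366, chromosome 9, 67022590 to 67049672). It lay at 69.8, 67 and 69 FPKM in KO day 2, 314, 317 and 320 FPKM in KO day 0, 40.1, 41.4 and 39.3 FPKM in WT day 2, and 459, 452 and 451 FPKM in WT day 0. In both genotypes day 2 lay far below day 0, and the genotypes lay closer to each other than they did for Acta2, Cnn2 or Cald1. Tpm1 was 1.43-fold lower in KO at day 0 and 1.7-fold higher in KO at day 2, and fell 4.62-fold in KO and 11.3-fold in WT (adjusted p = 8.15e-10, 2.27e-11, 6.12e-15 and 5.47e-17 in that order).

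Tpm2 encodes beta tropomyosin (ENSMUSG00000028464, chromosome 4, 43513726 to 43523583). Its levels of 26.6, 27 and 29.9 FPKM in KO day 2 overlapped those of 27, 27.4 and 25.6 FPKM in WT day 2. At day 0 it lay at 32.8, 32.9 and 34.2 FPKM in KO against 50.1, 51.9 and 51.2 FPKM in WT, without overlap. The difference passed the test at day 0 (1.53-fold lower in KO, log2 change -0.60, adjusted p = 6.51e-08) and not at day 2 (log2 change 0.06, 95% interval -0.04 to 0.15, adjusted p = 0.231). Tpm2 changed least of the 8 genes over the 2 days in WT cells, where it fell 1.91-fold.

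Myl9 encodes the regulatory light chain of smooth muscle myosin, the subunit whose phosphorylation starts contraction (ENSMUSG00000067818, chromosome 2, 156775408 to 156781657). It had 1, 0 and 1 reads in KO day 2, 0 reads in each KO day 0 library, 1, 1 and 4 reads in WT day 2, and 584, 508 and 530 reads in WT day 0, which gave 43.8, 39.9 and 40.2 FPKM. It was therefore present at more than a few reads in WT cells before induction only. Against a floor of 3 reads over the whole KO day 0 group, Myl9 was at least 519-fold lower in KO at day 0. Its fitted log2 change was -5.40 (adjusted p = 1.11e-13, rank 2 from the lowest). As Myl9 was tested only because it was high in WT day 0, this p-value and rank are descriptions.

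In WT cells the pooled library-scaled reads of Myl9 at day 0 were 274 times those at day 2 (95% interval 126 to 747). At day 2 it was near 0 in both genotypes, with a pooled ratio of KO to WT of 0.344 (95% interval 0.0339 to 1.92), and the difference did not pass the test (log2 change -0.13, 95% interval -0.32 to 0.06, adjusted p = 0.185). With quantile normalization it was called lower in KO at day 2 (log2 change -0.39, adjusted p = 0.00224). The fitted changes of Myl9 and Actg2 are no measure of their folds, since the pseudocount sets the value of a group near 0: at day 0 they were -5.40 and -3.69 with a pseudocount of 1, and -8.69 and -6.04 with a pseudocount of 0.1.

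Myh9 encodes the heavy chain of non-muscle myosin IIA, the motor of stress fibres (ENSMUSG00000022443, chromosome 15, 77760585 to 77842175). It lay at 401, 410 and 406 FPKM in KO day 2, 488, 497 and 481 FPKM in KO day 0, 183, 183 and 185 FPKM in WT day 2, and 878, 873 and 890 FPKM in WT day 0. No groups overlapped, and Myh9 had the highest level of the 10 genes in every group. It was 1.8-fold lower in KO at day 0 (log2 change -0.85, adjusted p = 1.45e-12) and 2.21-fold higher in KO at day 2 (log2 change 1.14, adjusted p = 8.96e-14). It fell 1.2-fold in KO and 4.8-fold in WT.

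**Figure D2:**
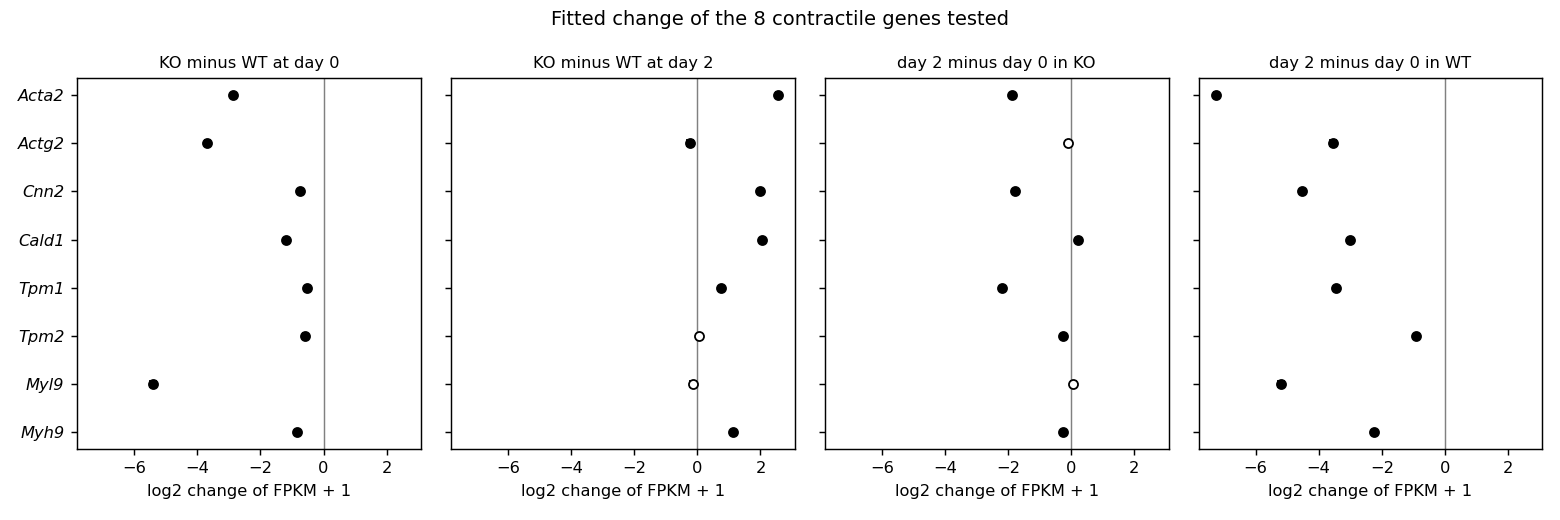
Fitted log2 change of FPKM + 1 with its standard error for the 8 genes tested, in 4 comparisons, with filled points for an adjusted p under 0.05 and open points for the rest; most error bars are narrower than the points. All 8 points lie left of 0 for KO minus WT at day 0 and for day 2 minus day 0 in WT, and 5 filled points lie right of 0 for KO minus WT at day 2.

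The make-up of the set differed between groups along with its sum. On the length-corrected FPKM scale, Acta2 made up 2.12% of the summed level in KO day 2, 5.36% in KO day 0, 0.727% in WT day 2 and 18.4% in WT day 0. Myh9 made up 44% in KO day 2, 35.4% in KO day 0, 52.5% in WT day 2 and 29.9% in WT day 0, and Tpm1 made up 7.43%, 23%, 11.5% and 15.4% in the same groups. Acta2 was the third highest of the 10 genes in WT day 0, above Tpm1, and the lowest of the 6 genes above 1 FPKM in KO day 2 and in WT day 2. In WT day 2, Tpm2, which fell least, stood above Cnn2.

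The difference between genotypes in the change over time was positive for all 8 genes, while 40.8% of all tested genes were called positive and 33% negative. It was at least 2-fold for 7 of 8, all but Tpm2, against 12.8% of all tested genes. It was over 5 on the log2(FPKM + 1) scale for Acta2 and Myl9, and least for Tpm1 (1.27, SE 0.03, adjusted p = 1.15e-11) and Tpm2 (0.66, SE 0.06, adjusted p = 1.07e-06). For Myl9 and Actg2 it reflects the WT values, because both genes were near 0 in KO at both times. The median over the 8 genes was 2.98, against 0.06 over all tested genes, and since Actg2 and Myl9 passed the filter only through WT day 0, that median is given as a description.

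The promoter windows of these genes are shown because CArG boxes are the element best known in them. RefSeq windows of 250 bases before to 50 bases after the start (GRCm38.p6) were matched by symbol for 8 of the 10 genes, with 9 windows in all. The start meant here is that of the window, which need not be the end of the gene span given above. For Acta2 and Tpm1 the window's start lies inside that span, and so do the boxes printed below for both genes. An exact CArG box stood in the windows of Cnn2 and Myl9, that is 2 of 8 genes, against 1.63% of all 32851 windows. With 1 mismatch allowed, 5 of 8 genes held a box, against 21.1% of all windows. The members are counted by gene and the background by window (32851 windows of 27025 genes), so that these shares are not like for like. As many genes of this set are known targets of SRF, the shares are descriptions. All 8 boxes found are printed below, with 10 bases on each side, written 5′ to 3′ on the strand of the gene, and the capitals mark the box.
Myl9 exact, 161 bases before the start, chr2:156775293-156775322, plus strand: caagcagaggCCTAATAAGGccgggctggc
Myl9 with 1 mismatch, 99 bases before the start, chr2:156775355-156775384, plus strand: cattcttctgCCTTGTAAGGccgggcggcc
Cnn2 exact, 56 bases before the start, chr10:79988534-79988563, plus strand: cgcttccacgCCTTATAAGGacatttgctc
Acta2 with 1 mismatch, 84 bases before the start, chr19:34255438-34255467, minus strand: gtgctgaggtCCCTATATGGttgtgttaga
Acta2 with 1 mismatch, 34 bases before the start, chr19:34255388-34255417, minus strand: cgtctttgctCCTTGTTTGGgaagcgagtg
Cald1 with 1 mismatch, 203 bases before the start, chr6:34598291-34598320, plus strand: acggtttcaaGCTTTTTAGGacttggtttt
Tpm1 with 1 mismatch, 221 bases before the start, chr9:67049415-67049444, minus strand: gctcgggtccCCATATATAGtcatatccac
Tpm1 with 1 mismatch, 80 bases before the start, chr9:67049274-67049303, minus strand: acaagcttttCCAAAAAAGTattggctgtc

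Myl9 and Cnn2, which each hold an exact match of different letters, differed in their values: at day 2 in KO cells Cnn2 lay at 45.5 to 47.9 FPKM while Myl9 had at most 1 read. The windows of Cnn1, Tpm2 and Myh9 held no box at these settings, although Myh9 changed in the same directions as Acta2 between genotypes, which says only that these letters are not in the window. The MCAT motif GGAATG was searched on both strands. It stood in the windows of Acta2, Cald1 and Tpm1, that is 3 of 8 genes, against 14.7% of all windows. Again genes are set against windows here. A match is a description and was not tested as a binding site.

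**Figure D3:**
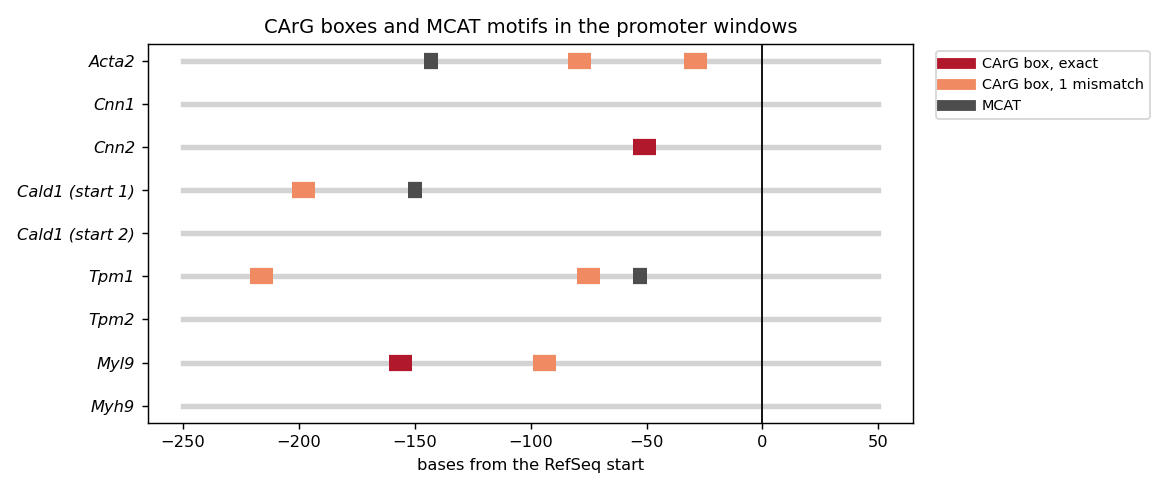
Positions of CArG boxes (exact, or with 1 mismatch) and MCAT motifs in the 9 promoter windows of 8 of the genes, in bases from the RefSeq start. Exact boxes are drawn for Cnn2 and Myl9 only, and the windows of Cnn1, Tpm2 and Myh9 are empty.

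Non-muscle relatives of the members were lower in KO at day 0 as well, and most were higher in KO at day 2. Of 9 actins, transgelins, calponins and tropomyosins beyond the members, 6 were tested. At day 0 all 6 were lower in KO, as were 44.2% of all tested genes (median log2 change -1.06, against -0.06 over all tested genes). At day 2, 5 were higher in KO, as were 40.8% of all tested genes, and 1 did not pass (median 0.63, against 0.00026).

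Actb, the cytoplasmic beta actin often used as a loading control, averaged 1577 FPKM in KO day 2, 1154 FPKM in KO day 0, 1064 FPKM in WT day 2 and 3529 FPKM in WT day 0. It was lower in KO at day 0 (log2 change -1.61, adjusted p = 3.06e-14) and higher in KO at day 2 (log2 change 0.57, adjusted p = 1.64e-10). Actg1, the cytoplasmic gamma actin, averaged 1687 FPKM in KO day 2, 1054 FPKM in KO day 0, 852 FPKM in WT day 2 and 2110 FPKM in WT day 0, and passed in the same directions (adjusted p = 1.16e-05 at day 0 and 1.45e-05 at day 2). Both have many processed copies in the genome, so that their counts are uncertain. Tpm4 averaged 205 FPKM in KO day 2, 217 FPKM in KO day 0, 68.3 FPKM in WT day 2 and 475 FPKM in WT day 0, with the largest day 2 change of the 6 (log2 change 1.57, adjusted p = 4.11e-14). Tagln2 was lower in KO at day 0 (log2 change -2.24, adjusted p = 1.69e-14) and did not pass at day 2 (log2 change -0.05, adjusted p = 0.0967).

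Among 13 myosin II chains and regulators of their phosphorylation, 10 were tested. At day 0, 6 were lower and 2 higher in KO, against 44.2% lower and 38.3% higher of all tested genes. At day 2, 7 were higher and 2 lower, against 40.8% higher and 40.6% lower of all tested genes. Mylk, the kinase that phosphorylates the light chain, went against the contractile genes at day 0: it averaged 9.54 FPKM in KO day 2, 18.2 FPKM in KO day 0, 8.64 FPKM in WT day 2 and 4.48 FPKM in WT day 0. It was higher in KO at day 0 (log2 change 1.81, adjusted p = 4.04e-12), with a small difference at day 2 (log2 change 0.13, adjusted p = 0.0194).

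The light chains of non-muscle cells remained expressed where Myl9 was near 0. Myl12a averaged 240 FPKM in KO day 2, 314 FPKM in KO day 0, 220 FPKM in WT day 2 and 663 FPKM in WT day 0. Myl12b averaged 128 FPKM in KO day 2, 156 FPKM in KO day 0, 64.3 FPKM in WT day 2 and 123 FPKM in WT day 0, and unlike Myl9 it was higher in KO on both days (log2 changes 0.33 and 0.98 at day 0 and day 2, adjusted p = 9.61e-07 and 3.56e-11). Myl12a and Myl12b are near-identical copies, so that reads may have been split between them. Myh10, the heavy chain of non-muscle myosin IIB, was lower in KO at day 2 (log2 change -0.36), when Myh9 was higher. Rock2, a kinase that keeps the light chain phosphorylated, was higher in KO at day 2 (log2 change 1.13, adjusted p = 4.26e-10) and did not pass at day 0.

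Of SRF and its cofactors, 7 of 8 listed genes were tested, with 4 lower and 1 higher in KO at day 0, and 4 higher and 2 lower at day 2. Of all tested genes, 44.2% were lower and 38.3% higher at day 0, and 40.8% were higher and 40.6% lower at day 2. With 7 genes these counts are descriptions. The median log2 change of the list was -0.40 at day 0 and 0.40 at day 2, against -0.06 and 0.00026 over all tested genes. Srf averaged 19.9 FPKM in KO day 2, 14 FPKM in KO day 0, 14.9 FPKM in WT day 2 and 26.6 FPKM in WT day 0. It was lower in KO at day 0 (log2 change -0.88, adjusted p = 1.87e-09) and higher in KO at day 2 (log2 change 0.40, adjusted p = 3.02e-06), the same directions as Acta2 with smaller changes. Mrtfa, the SRF cofactor that free actin holds back, averaged 43.8 FPKM in KO day 2, 34.3 FPKM in KO day 0, 14 FPKM in WT day 2 and 33.5 FPKM in WT day 0: it did not pass at day 0 (log2 change 0.03, adjusted p = 0.385) and was higher in KO at day 2 (log2 change 1.58, adjusted p = 6.53e-13). Mrtfb was lower in KO on both days (log2 changes -0.40 and -0.29).

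Fhl2, a LIM protein that binds SRF, was the 1 gene of this list higher in KO at day 0, against the direction of the contractile genes. It averaged 13.7 FPKM in KO against 2.79 FPKM in WT at day 2, and 95 FPKM in KO against 46.7 FPKM in WT at day 0 (log2 changes 1.95 and 1.01, adjusted p = 5.73e-12 and 2.8e-09). Klf4, a zinc finger factor known to hold back smooth muscle genes, averaged 26.9 FPKM in KO against 12.3 FPKM in WT at day 2, and 30 FPKM in KO against 56.5 FPKM in WT at day 0 (log2 changes 1.07 and -0.89, adjusted p = 1.77e-10 and 1.02e-09), the directions of Acta2.

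Of 16 other smooth muscle and adhesion proteins, 11 were tested, with 9 lower and 2 higher in KO at day 0, and 6 higher and 4 lower at day 2. Of all tested genes, 44.2% were lower and 38.3% higher at day 0, and 40.8% were higher and 40.6% lower at day 2. Zyx, the stress fibre and adhesion protein zyxin, averaged 178 FPKM in KO day 2, 157 FPKM in KO day 0, 53.2 FPKM in WT day 2 and 487 FPKM in WT day 0. Its log2 changes were -1.62 at day 0 and 1.72 at day 2 (adjusted p = 5.23e-14 and 2e-14). Flna, the actin cross-linker filamin A, was lower in KO at day 0 (log2 change -1.25) and higher at day 2 (log2 change 1.01), and Csrp1 likewise (log2 changes -1.38 and 2.04). Other genes of the list went differently, and the next examples were chosen after their values were seen. Tns1, the adhesion protein tensin, averaged 139 FPKM in KO against 176 FPKM in WT at day 2, and 87.7 FPKM in KO against 46.3 FPKM in WT at day 0, the reverse of Acta2 on both days (log2 changes -0.34 and 0.91, adjusted p = 5.56e-08 and 7.29e-12). Vcl, the adhesion protein vinculin, was lower in KO on both days (log2 changes -0.62 at day 2 and -1.20 at day 0).

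**Figure D4:**
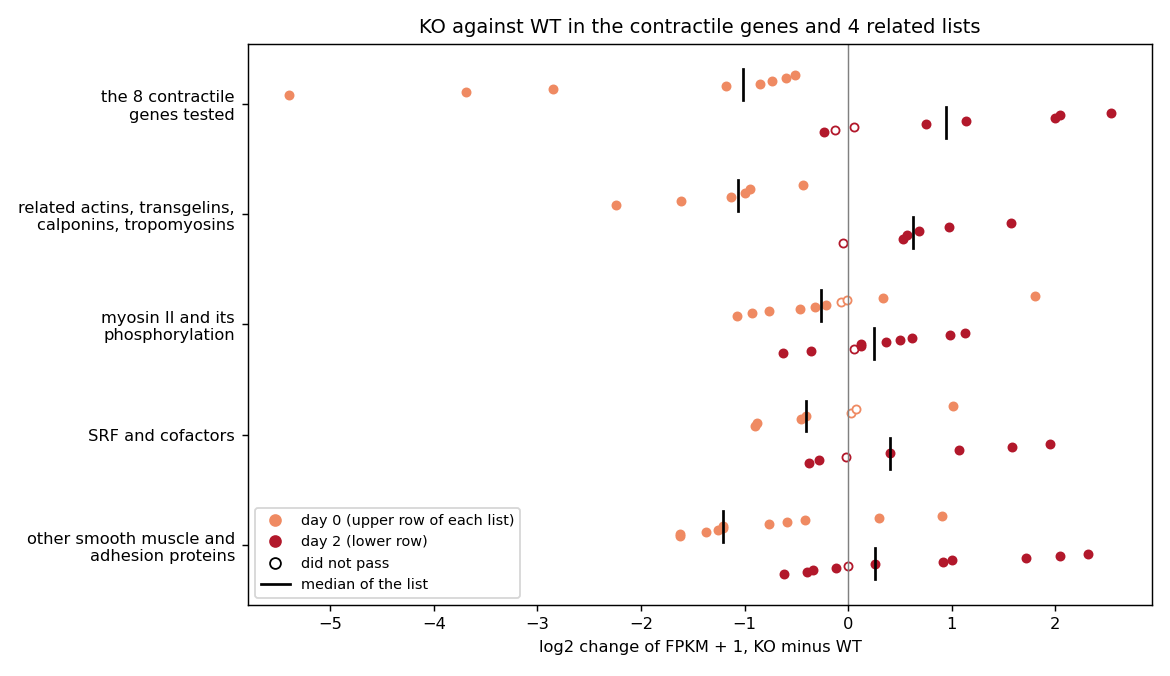
Fitted log2 change of FPKM + 1, KO minus WT, for the 8 contractile genes tested and the tested genes of 4 related lists, with the day 0 comparison above the day 2 comparison, filled points for an adjusted p under 0.05 and a bar at each list's median. The medians lie left of 0 at day 0 and right of 0 at day 2 in every list, with -1.01 and 0.95 for the contractile genes. Both contractile medians include Actg2 and Myl9, which passed the filter only through WT day 0, and are given as descriptions.

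Markers of other cell states moved with the same groups. The summed FPKM of 10 adipocyte markers was 398 to 408 in KO day 2, 197 to 209 in KO day 0, 8492 to 8678 in WT day 2 and 69.2 to 74.4 in WT day 0, with 8, 4, 9 and 4 of the 10 at a mean of 1 FPKM or more, and Lep at 0 in every group. That of 10 preadipocyte or fibroblast markers was 4466 to 4664 in KO day 2, 19334 to 19925 in KO day 0, 727 to 739 in WT day 2 and 5682 to 5885 in WT day 0, with 8, 9, 8 and 9 of the 10 at that level. Of these summed levels, the fibroblast sum was higher in KO on both days, whereas the contractile sum was lower in KO at day 0. At day 0 the fibroblast sum was mostly Col1a1 and Col3a1 (9746 and 7789 FPKM in KO, 3536 and 1082 FPKM in WT). Of its genes only Cd34 averaged lower in KO that day (0.28 against 3.94 FPKM), and Thy1 differed little (538 against 519 FPKM). The day 0 adipocyte sum was mostly Lpl (190 FPKM in KO, 55.9 FPKM in WT). Of the adipocyte markers only Pparg averaged lower in KO at day 0 (2.85 against 10.2 FPKM). The part of these states in the contractile genes' values was not tested.

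Skeletal and cardiac muscle markers summed to 0.964 to 1.01 FPKM in KO day 2, 3.08 to 3.84 FPKM in KO day 0, 0.175 to 0.575 FPKM in WT day 2 and 35.6 to 37.5 FPKM in WT day 0. Their 10 genes had 0, 1, 0 and 1 member at a mean of 1 FPKM or more in these groups, and Myod1, Myog and Myf5, the factors that define skeletal muscle, were at 0 in all 4. In WT day 0 nearly all of the sum was Tnnt2, cardiac troponin T, at a mean of 35.5 FPKM, and like Myl9 and Actg2 it reached a mean of 1 FPKM in that group only.

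The tested genes whose levels most resembled those of the members were found by Pearson's r of log2(FPKM + 1) over the 12 libraries, which share 4 groups, so that r describes the pattern of 4 group means. Nearest to Acta2 were Ccnd1 (r = 0.999), Washc5 (0.997), Nab2, Capg and F2r (0.996 each). Nearest to Cald1 were Ier5l, Tmsb4x, Csrp1, Nuak2 and Plec (0.996 to 0.998), and nearest to Myh9 were Msn, Lrrc8c, Plk2, Clic1 and Vamp5 (0.997 to 0.999). Tagln had too few reads for this measure. Between members, r was 0.983 for Acta2 with Myh9 and 0.97 for Acta2 with Cnn2, but 0.788 for Acta2 with Myl9 and 0.662 for Cald1 with Myl9.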

How the data were processed

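The FPKM values per gene were made and deposited by the authors for 12 RNA-seq libraries. The submitters' processing notes name TopHat2 2.0.12, HTSeq 0.6.1 and mm10, without the options used. The 24 m6A immunoprecipitation and input libraries of the series were not analysed here. Values of 1 gene in the 12 libraries were whole multiples of what 1 read is worth, in 30916 of 30916 genes within 0.001 read, which gave each library's reads. A gene above 0 in only 1 library met this by construction. Genes above 0 in few libraries could meet it by chance, because many multiples were tried. Of the 30916 genes, 16215 were above 0 in all 12.

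Tests used limma 3.58.1 in R 4.3.3 on log2(FPKM + 1), for genes averaging 1 FPKM or more across the 12 libraries, with 4 group means, 1 variance trend, and Benjamini-Hochberg adjustment over all genes tested at 0.05. Counting intervals are exact, from pooled reads. The pseudocount lowers the fitted change of low genes, so that ratios of mean FPKM stand beside it. Members and lists were chosen with earlier results of these data known. By rule all members and a fixed set of regulators and relatives are named, and others may be named from the 4 genes of smallest adjusted p of each list in a genotype comparison. The script was tested on simulated data. The recovered reads were fitted with voom as an alternative.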

Additional observations from a re-analysis of the deposited data

Results flagged for a closer look

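For 6 contractile genes, the change over the 2 days differed between KO and WT cells by a test of the difference itself (the interaction of genotype and day in limma, on log2(FPKM + 1)). The difference of KO change minus WT change was 5.40 for Acta2, 3.22 for Cald1, 2.74 for Cnn2, 1.99 for Myh9, 1.27 for Tpm1 and 0.66 for Tpm2. In KO cells Cald1 rose while in WT cells it fell. The same difference was 5.27 for Myl9 and 3.46 for Actg2, but both were tested only because they were high in WT day 0, had at most 3 reads in any KO library, and take their fitted size from the pseudocount.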

How the results depend on the processing

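The values of the 8 tested members were recomputed in 22 settings, of which 12 left out 1 library: 861 of 867 results kept their direction and side of the threshold, and none reversed. Beside the Actg2 and Myl9 calls at day 2 given above, Tpm2 was called higher in KO at day 2 after rescaling to TPM (log2 change 0.10, adjusted p = 0.0273). Of 40 group levels, 32 moved by more than their SD in TPM. Scaling to TPM multiplies all genes of a library by the same factor, so that this count mostly shows a change of unit. Leaving out single libraries, genes passing numbered 10388 to 10737 at day 0, 10275 to 10540 at day 2, 9034 to 9408 in KO, 10161 to 10483 in WT and 9318 to 9401 for the interaction. Same-numbered libraries did not deviate together (correlations -0.0545 to 0.0869 over 18 pairs, 6 libraries nearest their own number). With the replicate number as a block, 10652, 10515, 9386, 10411 and 9486 genes passed in those comparisons. Quantile normalization moved the median change of all genes between days in WT by 0.12. Over all genes the balance at day 0 turned round with scaling: 5541 were higher and 5032 lower in KO in TPM, and 5583 and 5094 by voom on the recovered reads, against 4958 and 5726 as reported, while the 8 members stayed lower. The planned quasi-likelihood count model was not run, and voom took its place. The interaction could not be fitted on compared libraries alone, and Actg2 was not tested at a minimum of 5 FPKM.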
